A study of Mus musculus with 9 samples.

Results

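The genes of DNA replication and S-phase entry were followed across 3 kinds of cultured mouse fibroblast. The 42 genes were taken by name from a list of replication and G1/S genes, drawn up with earlier results of these data known, and all 42 were found among the 51912 genes of the count table. All 42 also passed the filter on low counts, which kept 14314 genes for testing. RNA-seq had been run on beta-catenin -/- cancer-associated fibroblasts (beta-catenin -/- CAFs), on wild-type cancer-associated fibroblasts (CAFs) and on wild-type normal fibroblasts (NFs), with 3 libraries in each group. All 3 groups carry the strain label C57BL/6 and had been kept in DMEM with serum, and no group had a further treatment. The sources used here do not give the tumour or tissue of origin, the age or sex of the animals, how beta-catenin was removed, or whether a group is 1 clone or several cultures. P-values therefore measure the spread between these libraries, which may be technical. Since the RNA came from bulk cultures, fewer cells in S phase and less of an RNA in each such cell cannot be told apart.

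A replication origin is first bound by the origin recognition complex, which with Cdc6 and Cdt1 loads the ring-shaped MCM2-7 helicase onto DNA in G1 phase. Cdc45, GINS and Mcm10 turn the loaded ring into a moving helicase at the start of S phase, after which polymerase alpha with primase starts each new strand and polymerase epsilon, held by the PCNA clamp, extends the leading strand. Many of these genes are switched on together at the G1/S boundary by E2F transcription factors once cyclin-dependent kinases have inactivated the retinoblastoma protein. Ribonucleotide reductase, thymidylate synthase and thymidine kinase supply the deoxynucleotides that the polymerases use. Beta-catenin, encoded by Ctnnb1, links cadherins to the cytoskeleton and is the transcriptional co-activator of the Wnt pathway.

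The libraries held 15433810 to 21893574 counts, and the least abundant reading of any of the 42 genes was 63 counts. Levels are given as CPM (counts scaled to a fixed library size) with library sizes scaled by the trimmed mean of M values (TMM). The 3 CAF libraries differed most from the rest: across the tested genes, log2 CPM correlated at r = 0.985 to 0.988 between CAF libraries, at 0.813 to 0.833 between them and beta-catenin -/- CAFs, and at 0.813 to 0.826 between them and NFs. NF replicate 1 was closer to the 3 beta-catenin -/- CAFs libraries (r = 0.988 to 0.993) than to NF replicates 2 and 3 (r = 0.956 and 0.942). Results that rest on this library are given with and without it. Ctnnb1 was read at 668, 637 and 627 CPM in beta-catenin -/- CAFs, 855, 882 and 858 CPM in CAFs and 713, 799 and 669 CPM in NFs. Its log2 fold change in beta-catenin -/- CAFs against CAFs was −0.43 ± 0.14 (edgeR quasi-likelihood test, SE, Benjamini-Hochberg adjusted p = 0.0339). How beta-catenin was removed is not given, and reads from any exons left in place would still count, so this level cannot check the label.

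Markers of fibroblasts and of other cells moved with the groups too. The summed level of 11 fibroblast markers was 6613 to 7432 CPM in beta-catenin -/- CAFs, 34121 to 52895 CPM in CAFs and 4986 to 6393 CPM in NFs. The largest single marker reached 5796 CPM in beta-catenin -/- CAFs and 5175 CPM in NFs, most of the sum in that library, and 25744 CPM in CAFs. Vim was at 3817 CPM or more in every library, whereas Thy1 was at 0.633 CPM or less in all 6 libraries of beta-catenin -/- CAFs and NFs, against at least 1755 CPM in CAFs. The 6 epithelial markers summed to 0.289 to 0.519 CPM in beta-catenin -/- CAFs, 5.27 to 15.3 CPM in CAFs and 0.633 to 3.50 CPM in NFs. The 5 leukocyte markers summed to 18.5 to 25.5 CPM in beta-catenin -/- CAFs, 4.49 to 7.23 CPM in CAFs and 28.9 to 47.0 CPM in NFs, most of it Cd68 outside the CAFs, while Ptprc stayed at 1.24 CPM or less. Smooth muscle and pericyte markers (5 genes) summed to 547 to 1136 CPM in beta-catenin -/- CAFs, 308 to 426 CPM in CAFs and 160 to 812 CPM in NFs. The largest single gene of these reached 1131 CPM in beta-catenin -/- CAFs and 803 CPM in NFs, nearly all of the sum in that library. In CAFs no single gene of the list passed 138 CPM. The 4 endothelial and 6 melanocyte markers summed to at most 16.3 and 6.11 CPM in any library. The part of these differences in the replication results was not tested.

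The control DNA of these genes is shown through 4 promoters that hold an E2F-type motif, chosen because their genes had different patterns among the groups: Mcm6 and Rfc3 were higher in beta-catenin -/- CAFs than in CAFs, Orc1 was lower, and Mcm7 passed the test in CAFs against NFs. Each run is the 250 bases before the annotated start in the RefSeq promoter table (GRCm38.p6), 5′ to 3′ on the gene's strand, with E2F-type motifs in capitals.
Mcm6, chr1:128359706-128359955, minus strand: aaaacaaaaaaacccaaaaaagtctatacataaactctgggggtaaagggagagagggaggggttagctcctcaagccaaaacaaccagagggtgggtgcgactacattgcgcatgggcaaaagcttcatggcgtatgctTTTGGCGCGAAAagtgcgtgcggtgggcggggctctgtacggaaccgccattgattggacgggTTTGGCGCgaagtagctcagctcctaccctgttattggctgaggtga
Rfc3, chr5:151651209-151651458, minus strand: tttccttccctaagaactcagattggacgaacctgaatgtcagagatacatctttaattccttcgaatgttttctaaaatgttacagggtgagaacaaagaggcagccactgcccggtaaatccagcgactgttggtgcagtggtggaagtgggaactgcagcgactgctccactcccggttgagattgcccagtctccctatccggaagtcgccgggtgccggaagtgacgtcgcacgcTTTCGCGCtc
Orc1, chr4:108579204-108579453, plus strand: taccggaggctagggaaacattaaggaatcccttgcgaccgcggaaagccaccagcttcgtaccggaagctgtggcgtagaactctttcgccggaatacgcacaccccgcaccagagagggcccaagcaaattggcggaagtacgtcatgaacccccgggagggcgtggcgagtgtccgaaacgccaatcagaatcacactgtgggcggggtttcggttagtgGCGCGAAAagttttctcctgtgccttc
Mcm7, chr5:138171884-138172133, minus strand: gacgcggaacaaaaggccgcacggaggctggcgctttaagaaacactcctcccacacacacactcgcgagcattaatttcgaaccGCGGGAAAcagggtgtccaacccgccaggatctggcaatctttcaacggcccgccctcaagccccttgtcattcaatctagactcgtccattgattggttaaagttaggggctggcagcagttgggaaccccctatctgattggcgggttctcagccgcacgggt
Mcm6 holds 3 matches, of which the first pair overlap on opposite strands, and the other 3 promoters hold 1 each.

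The motif was searched as TTTCCCGC, TTTCGCGC, TTTGCCGC or TTTGGCGC on both strands, in the 250 bases before the start, and matches that overlap were counted apart. Of the 42 genes, 34 had an entry in the promoter table, and 8 of the 34 (23.5%) held a match: Mcm5, Mcm6, Mcm7, Rfc3, Orc1, Gins3, Cdc6 and Pola1. Of all 27025 promoters listed there, 517 (1.91%) did. Of the 11012 promoters whose share of G and C lay in the middle range of the 34, 312 (2.83%) did. The motif did not sort the genes by direction: it was found in 2 of 12 promoters of genes that rose in beta-catenin -/- CAFs against CAFs, in 1 of 6 of those that fell and in 5 of 16 of those without a call. CCAAT, the letters bound by NF-Y, was found on either strand in 20 of the 34 promoters (58.8%), in 34.5% of all and in 35.5% of those in that middle range. A match is a run of letters and not a measured binding site, and the window is set by the first start listed for each gene. A short run of bases after that start was found in an annotated transcript of the same gene for 29 of the 34. It was not found for Mcm6 or Mcm5, so their windows are less certain. The Mcm7 window lies wholly inside the GENCODE span of that gene, which reaches to base 138172422. The Rfc3 and Orc1 windows reach into the spans of their genes, to base 151651242 and from base 108579423, and their matches fall inside. These matches are therefore not upstream of every annotated transcript.

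**Figure D1:**
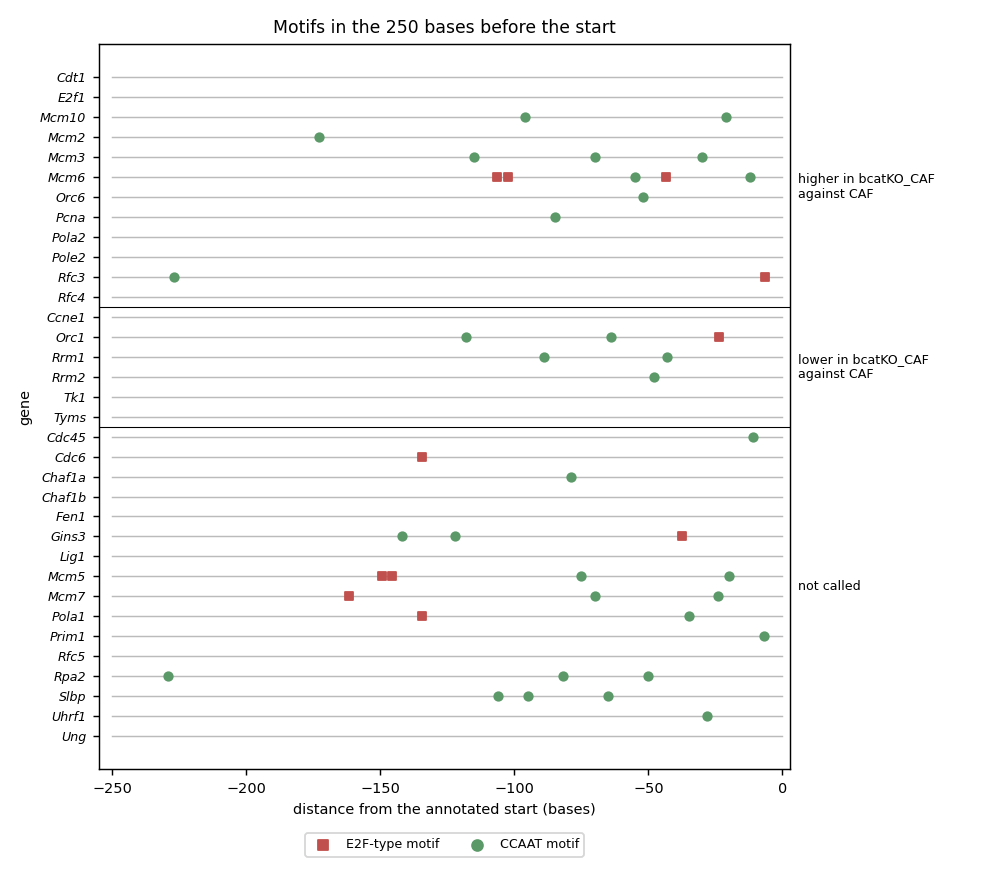
Positions of E2F-type motifs (squares) and CCAAT motifs (circles) in the 250 bases before the annotated start of 34 replication genes, one line a gene, with distance from the start in bases on the x axis. Genes are grouped by their call in beta-catenin -/- CAFs against CAFs: 8 of the 34 lines carry an E2F-type match, spread over all 3 groups.

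The 42 genes split in beta-catenin -/- CAFs against CAFs. In all, 12 genes rose: the helicase subunits Mcm2, Mcm3 and Mcm6, the loader Cdt1, Orc6, Mcm10, Pola2, Pole2, Pcna, Rfc3, Rfc4 and the transcription factor E2f1. The 4 nucleotide supply genes fell together, with Orc1, Gins2 and Ccne1, 7 genes in all, and 23 genes were not called. The share of the 42 called was 45.2%, close to the 44.2% of all tested genes (21.5% higher and 22.7% lower; edgeR quasi-likelihood test, adjusted p under 0.05). The median log2 fold change was 0.19, against −0.01 over all genes, and the median size of change was 0.44 against 0.61. In 31 of the 42 genes the 3 beta-catenin -/- CAFs libraries lay wholly above (20) or below (11) the 3 CAF libraries, beside 65.7% of all tested genes that did not overlap, 32.4% above and 33.3% below.

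CAFs against NFs gave the other side of the same CAF libraries: 5 genes rose (Orc1, Gins2, Rrm1, Rrm2 and Tk1) and 14 fell (Mcm2, Mcm3, Mcm5, Mcm6, Mcm7, Orc6, Cdt1, Cdc45, Pola2, Prim1, Pole2, Pcna, Rfc3 and E2f1). Again 45.2% were called, beside 39.9% of all tested genes, of which 20% were higher and 19.9% lower. The median log2 fold change of the 42 genes was −0.35, against −0.04 over all genes. The groups did not overlap in 28 genes (9 with CAFs above and 19 with CAFs below), beside 48.2% of all tested genes (24.6% above and 23.6% below). Both comparisons share the CAF libraries, so a gene with an extreme CAF level appears in both with opposite signs.

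**Figure D2:**
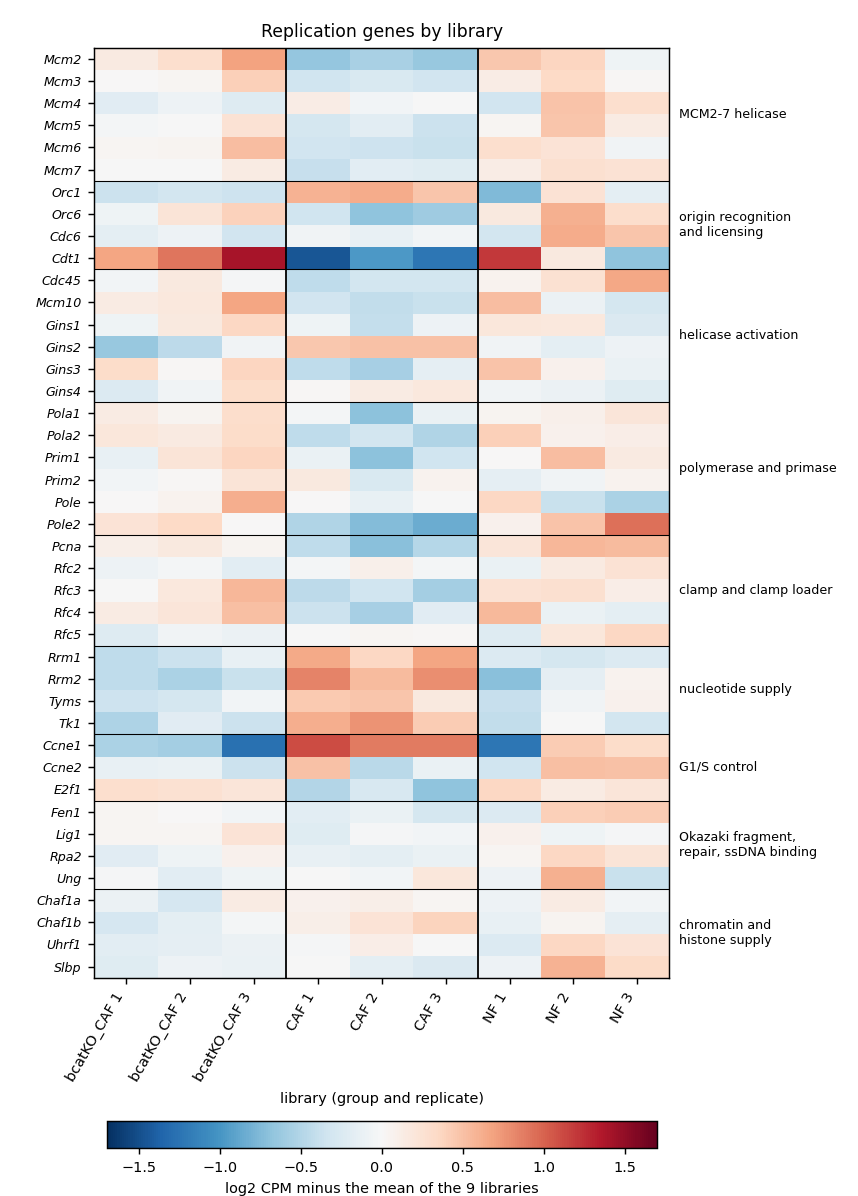
Level of each of the 42 genes in each library as log2 CPM minus the mean of the 9 libraries (colour), genes in rows by functional group and libraries in columns from beta-catenin -/- CAFs (bcatKO_CAF) to CAFs and NFs. In the CAF columns most helicase, polymerase and clamp rows are blue and the 4 nucleotide supply rows are red.

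**Figure D3:**
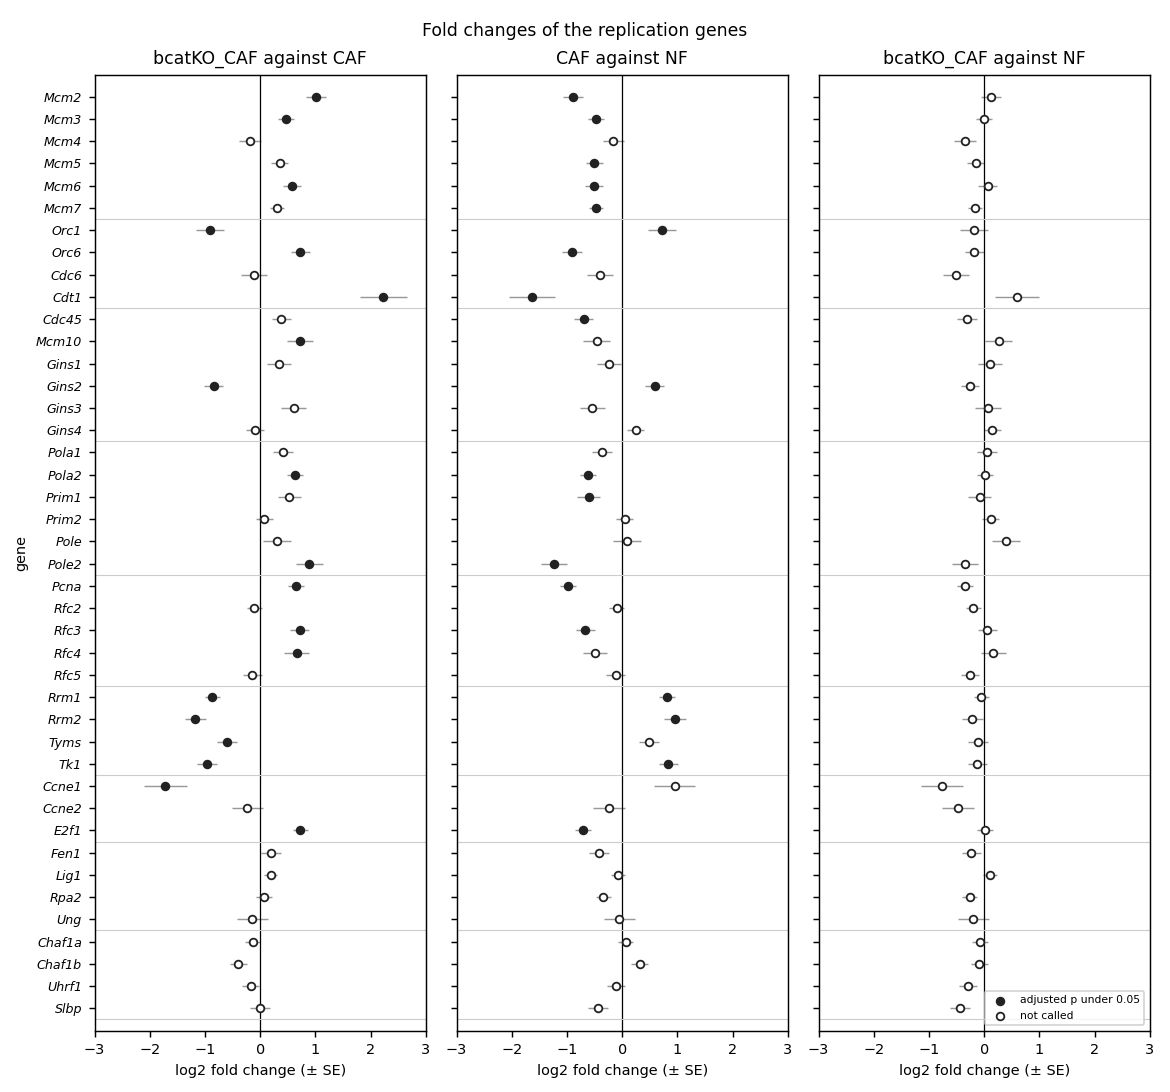
Log2 fold change with its SE (x axis) of the 42 genes in each of 3 comparisons, with filled points at an adjusted p under 0.05 in edgeR's quasi-likelihood test. Of the filled points, 12 lie right and 7 left of 0 for beta-catenin -/- CAFs against CAFs, 5 right and 14 left for CAFs against NFs, and there is none for beta-catenin -/- CAFs against NFs.

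The summed RNA of the helicase genes was lower in CAFs. The 6 MCM2-7 genes summed to 653, 680 and 840 CPM in beta-catenin -/- CAFs, 526, 535 and 516 CPM in CAFs and 728, 833 and 682 CPM in NFs. Every CAF library was below every other library. Mcm2, the subunit that also carries histones at the fork (chromosome 6, 88883474 to 88898780, minus strand), had the widest difference of the 6: 151, 165 and 217 CPM in beta-catenin -/- CAFs, 85.4, 92.0 and 86.2 CPM in CAFs and 185, 174 and 129 CPM in NFs. The CAF libraries did not overlap with either other group. The log2 fold change was 1.01 ± 0.18 in beta-catenin -/- CAFs against CAFs (edgeR, adjusted p = 0.00195) and −0.89 ± 0.18 in CAFs against NFs (edgeR, adjusted p = 0.00404), and both calls held in all 13 alternatives tried.

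Mcm3 and Mcm6, the other subunits that rose in beta-catenin -/- CAFs against CAFs, did so by less. Mcm3 was at 104, 106 and 138 CPM in beta-catenin -/- CAFs, 81.7, 86.6 and 82.5 CPM in CAFs and 113, 130 and 105 CPM in NFs, and its log2 fold changes were 0.47 ± 0.15 in beta-catenin -/- CAFs against CAFs and −0.48 ± 0.15 in CAFs against NFs (edgeR, adjusted p = 0.0286 and 0.0295). Mcm6 was at 157, 159 and 219 CPM in beta-catenin -/- CAFs, 122, 120 and 118 CPM in CAFs and 186, 180 and 146 CPM in NFs, with 0.57 ± 0.17 in beta-catenin -/- CAFs against CAFs and −0.51 ± 0.17 in CAFs against NFs (edgeR, adjusted p = 0.0198 and 0.0344). The CAF libraries were the lowest 3 of the 9 for both genes. These calls were the less secure ones. Against CAFs, Mcm3 lost its call without beta-catenin -/- CAF replicate 2 or 3 or any of the CAF replicates and with no filter (adjusted p of 0.0129 to 0.135 over all alternatives), and Mcm6 without beta-catenin -/- CAF replicate 3 or any of the CAF replicates (0.00823 to 0.0928). In CAFs against NFs both lost theirs with no filter, without any of the CAF replicates or NF replicate 2, and Mcm6 also without NF replicate 1 (0.00993 to 0.0875 for Mcm3 and 0.0107 to 0.0964 for Mcm6).

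Mcm5 and Mcm7 passed the test in CAFs against NFs alone of the main comparisons. Mcm5 was at 86.8, 88.5 and 106 CPM in beta-catenin -/- CAFs, 72.5, 78.6 and 69.0 CPM in CAFs and 91.6, 124 and 98.0 CPM in NFs, a log2 fold change of −0.51 ± 0.15 in CAFs against NFs (edgeR, adjusted p = 0.0245). Mcm7 was at 60.02, 59.9 and 66.2 CPM in beta-catenin -/- CAFs, 45.7, 53.1 and 51.9 CPM in CAFs and 65.5, 72.6 and 70.9 CPM in NFs, a log2 fold change of −0.47 ± 0.12 (edgeR, adjusted p = 0.0126). For both genes all 3 CAF libraries were again below the other 6, although the adjusted p in beta-catenin -/- CAFs against CAFs was 0.0856 for Mcm5 and 0.0687 for Mcm7. The Mcm5 call in CAFs against NFs was lost with no filter, with the 6 libraries of the comparison alone, and without CAF replicate 1, CAF replicate 3 or NF replicate 2 (0.00935 to 0.0888 over all alternatives), and the Mcm7 call with no filter (0.00148 to 0.0634).

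Mcm4 did not follow the other subunits. It was at 95.4, 102 and 94.0 CPM in beta-catenin -/- CAFs, 119, 105 and 108 CPM in CAFs and 86.7, 153 and 133 CPM in NFs. The CAF libraries lay above beta-catenin -/- CAFs and inside the NF range. Its adjusted p was 0.458 in beta-catenin -/- CAFs against CAFs and 0.539 in CAFs against NFs (edgeR), but without NF replicate 1 it was called lower in CAFs than in NFs (log2 fold change −0.35, adjusted p = 0.0463, with 0.0463 to 0.969 over all alternatives). Per length, as RPKM (CPM per kilobase of exon), the 6 subunits spanned 14.0 ± 0.8 for Mcm7 to 38.2 ± 7.6 for Mcm6 in beta-catenin -/- CAFs, 11.3 ± 0.9 for Mcm7 to 30.8 ± 2.0 for Mcm4 in CAFs and 15.7 ± 0.8 for Mcm7 to 36.6 ± 4.6 for Mcm6 in NFs (SD, n = 3 each). Mcm2 RPKM was 25.5 ± 5.0 in beta-catenin -/- CAFs, 12.6 ± 0.5 in CAFs and 23.4 ± 4.3 in NFs, so that in CAFs Mcm2 lay next to the lowest subunit.

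Among the loading factors, Cdt1 moved by far the most and the licensing genes did not all move the same way. Cdt1, which brings MCM2-7 to the origin (chromosome 8, 122568015 to 122573554, plus strand), was at 82.1, 97.2 and 137 CPM in beta-catenin -/- CAFs, 18.9, 26.3 and 22.01 CPM in CAFs and 119, 58.3 and 32.1 CPM in NFs. The CAF libraries were the lowest, and the NF libraries ranged widely, with replicate 1 among the beta-catenin -/- CAFs values. The log2 fold change was 2.23 ± 0.42 in beta-catenin -/- CAFs against CAFs (edgeR, adjusted p = 0.00246), a call kept in all alternatives. In CAFs against NFs it was −1.64 ± 0.42 (edgeR, adjusted p = 0.0117), and −1.004 without NF replicate 1 (adjusted p of 0.000326 to 0.0498 over all alternatives).

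Orc6, a subunit of the origin recognition complex, was at 50.2, 61.6 and 69.6 CPM in beta-catenin -/- CAFs, 41.9, 32.9 and 34.7 CPM in CAFs and 59.4, 80.4 and 65.3 CPM in NFs. The 3 CAF libraries were below the other 6. The log2 fold changes were 0.73 ± 0.18 in beta-catenin -/- CAFs against CAFs and −0.91 ± 0.18 in CAFs against NFs (edgeR, adjusted p = 0.00897 and 0.00306), and both calls held in all alternatives. Orc6 shares 6.93% of its exon bases with Vps35 on the opposite strand, and whether counting used strand is not known. Vps35 had means of 437 CPM in beta-catenin -/- CAFs, 329 CPM in CAFs and 378 CPM in NFs, without a call in either comparison (edgeR, adjusted p = 0.146 and 0.493). Orc1, the ATPase subunit of the origin recognition complex, ran the other way from Orc6 at a low level: 5.72, 5.92 and 5.77 CPM in beta-catenin -/- CAFs, 11.04, 11.4 and 10.2 CPM in CAFs and 4.37, 8.74 and 6.58 CPM in NFs. All 3 CAF libraries were above the other 6. Its log2 fold changes were −0.91 ± 0.26 in beta-catenin -/- CAFs against CAFs and 0.73 ± 0.25 in CAFs against NFs (edgeR, adjusted p = 0.0174 and 0.0461). The first call was lost without any of the beta-catenin -/- CAF replicates or CAF replicate 2 (0.00169 to 0.0552 over all alternatives). The second was lost under 8 of the 13 alternatives: with total counts as scaling, with no filter, with the 6 libraries alone, and without any of the CAF replicates, NF replicate 1 or NF replicate 3 (0.0125 to 0.138). Cdc6, the ATPase that joins the complex before loading, was at 11.03 to 13.03 CPM in beta-catenin -/- CAFs, 12.6 to 13.4 CPM in CAFs and 11.1 to 21.3 CPM in NFs and had no call. Without NF replicate 1 it was called lower in CAFs than in NFs (log2 fold change −0.61, adjusted p = 0.0115, with 0.0115 to 0.532 over all alternatives).

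Of the 6 genes that turn the loaded ring into a moving helicase, 1 was called in each direction in beta-catenin -/- CAFs against CAFs and 1 in each direction in CAFs against NFs. Mcm10, which acts in origin firing, was at 21.98, 22.6 and 31.8 CPM in beta-catenin -/- CAFs, 15.9, 15.0 and 15.3 CPM in CAFs and 28.8, 18.7 and 16.2 CPM in NFs. It rose in beta-catenin -/- CAFs against CAFs by 0.72 ± 0.24 on the log2 scale (edgeR, adjusted p = 0.0336). That call was lost without beta-catenin -/- CAF replicate 2 or 3 or any of the CAF replicates (0.00590 to 0.140 over all alternatives). Cdc45, the helicase partner that makes the ring move, was at 23.1, 26.7 and 23.5 CPM in beta-catenin -/- CAFs, 17.7, 19.2 and 19.1 CPM in CAFs and 24.9, 28.5 and 37.5 CPM in NFs. Its CAF libraries were the lowest of the 9, and it fell in CAFs against NFs by 0.70 ± 0.17 on the log2 scale (edgeR, adjusted p = 0.0106). In beta-catenin -/- CAFs against CAFs its adjusted p was 0.0994. Cdc45 shares 5.96% of its exon bases with Ufd1 on the opposite strand, and whether counting used strand is not known. Ufd1 had means of 92.0 CPM in beta-catenin -/- CAFs, 74.4 CPM in CAFs and 99.9 CPM in NFs. It was itself lower in CAFs against NFs (log2 fold change −0.42, edgeR, adjusted p = 0.0347).

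The 4 GINS subunits, which form 1 complex, were not called together. Gins2 was at 14.1, 16.2 and 21.1 CPM in beta-catenin -/- CAFs, 30.3, 31.0 and 31.0 CPM in CAFs and 21.2, 19.7 and 20.7 CPM in NFs, with the CAF libraries well above the other 6. Its log2 fold changes were −0.84 ± 0.17 in beta-catenin -/- CAFs against CAFs (edgeR, adjusted p = 0.00314), kept in all alternatives, and 0.59 ± 0.17 in CAFs against NFs (edgeR, adjusted p = 0.0198). The second call was lost with total counts as scaling, with no filter, without CAF replicate 3 and without NF replicate 2 (0.00360 to 0.0711). Gins2 is uncertain for another reason: 67.3% of its exon bases are shared with Gse1 on the opposite strand, and the sources used here do not say whether counting used strand. Gse1 itself had log2 fold changes of −0.12 and 0.13 in these comparisons (edgeR, adjusted p = 0.619 and 0.610). Gins1 at 5.85 to 9.93 CPM, Gins3 at 5.59 to 11.6 CPM and Gins4 at 26.6 to 38.7 CPM over the 9 libraries had no call in any main comparison. For Gins3 the 3 CAF libraries, at 6.16, 5.59 and 7.45 CPM, were below the other 6, with an adjusted p of 0.0568 in beta-catenin -/- CAFs against CAFs and 0.0902 in CAFs against NFs (edgeR).

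Polymerase and primase genes were higher in beta-catenin -/- CAFs than in CAFs where they were called. Pole2, the second subunit of polymerase epsilon (chromosome 12, 69201773 to 69228195, minus strand), was at 12.8, 13.9 and 10.97 CPM in beta-catenin -/- CAFs, 7.68, 6.58 and 6.06 CPM in CAFs and 11.5, 15.4 and 21.0 CPM in NFs. The CAF libraries were the lowest 3. The log2 fold change was 0.89 ± 0.24 in beta-catenin -/- CAFs against CAFs (edgeR, adjusted p = 0.015), lost without beta-catenin -/- CAF replicate 2 or CAF replicate 3 (0.00272 to 0.0564 over all alternatives), and −1.24 ± 0.24 in CAFs against NFs (edgeR, adjusted p = 0.00306), kept in all. Pole, its catalytic partner, had no call and ranged from 48.3 to 73.6 CPM in beta-catenin -/- CAFs, 43.7 to 48.3 CPM in CAFs and 33.1 to 61.0 CPM in NFs.

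Pola2, the regulatory subunit of polymerase alpha, was at 35.9, 35.0 and 39.0 CPM in beta-catenin -/- CAFs, 23.3, 25.4 and 22.01 CPM in CAFs and 41.7, 33.1 and 34.1 CPM in NFs. The CAF libraries did not reach the other groups, and both calls held in all alternatives, with log2 fold changes of 0.64 ± 0.14 in beta-catenin -/- CAFs against CAFs and −0.62 ± 0.14 in CAFs against NFs (edgeR, adjusted p = 0.00565 and 0.00651). Prim1, the catalytic primase subunit, was at 24.5, 30.9 and 34.3 CPM in beta-catenin -/- CAFs, 24.6, 16.4 and 21.2 CPM in CAFs and 26.9, 38.2 and 29.7 CPM in NFs. It fell in CAFs against NFs by 0.61 ± 0.21 on the log2 scale (edgeR, adjusted p = 0.0446). That call was lost under 7 alternatives, with DESeq2's size factors in edgeR, with no filter, with the 6 libraries alone, and when CAF replicate 2, CAF replicate 3, NF replicate 2 or NF replicate 3 was left out (0.0238 to 0.153). Pola1, the catalytic subunit of polymerase alpha, and Prim2, the large primase subunit, had no call in any main comparison, at 30.2 to 60.3 CPM and 27.0 to 37.8 CPM over the 9 libraries.

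RNA of the sliding clamp and of part of its loader was lower in CAFs. Pcna, the clamp (chromosome 2, 132249162 to 132253314, minus strand), was at 55.5, 58.5 and 53.7 CPM in beta-catenin -/- CAFs, 38.5, 31.8 and 37.0 CPM in CAFs and 60.2, 76.8 and 75.7 CPM in NFs. The 3 groups did not overlap, with CAFs lowest and NFs highest. The log2 fold change was 0.64 ± 0.14 in beta-catenin -/- CAFs against CAFs (edgeR, adjusted p = 0.00556) and −0.99 ± 0.14 in CAFs against NFs (edgeR, adjusted p = 0.000551), both kept in all alternatives. The annotation holds 2 Pcna pseudogenes, whose reads could have been split or lost in counting.

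The clamp loader is a ring whose small subunits Rfc2 to Rfc5 are described here. Rfc3 was at 22.04, 24.96 and 32.6 CPM in beta-catenin -/- CAFs, 16.2, 17.4 and 14.8 CPM in CAFs and 26.2, 26.7 and 23.9 CPM in NFs, with the CAF libraries below all others. Its log2 fold changes were 0.72 ± 0.17 in beta-catenin -/- CAFs against CAFs and −0.67 ± 0.17 in CAFs against NFs (edgeR, adjusted p = 0.00869 and 0.0132). The call in CAFs against NFs was lost without CAF replicate 3 (0.00412 to 0.0554). Rfc4 was at 22.6, 23.5 and 29.2 CPM in beta-catenin -/- CAFs, 15.9, 13.8 and 17.9 CPM in CAFs and 29.9, 18.9 and 18.1 CPM in NFs, and it rose in beta-catenin -/- CAFs against CAFs by 0.66 ± 0.22 on the log2 scale (edgeR, adjusted p = 0.0384). Leaving out any of the 6 libraries of the comparison ended that call (0.00753 to 0.139 over all alternatives). Rfc4 also shares 12.7% of its exon bases with Eif4a2 on the opposite strand, which itself had a log2 fold change of 1.30 (edgeR, adjusted p = 0.00144). Rfc2 at 37.4 to 50.3 CPM and Rfc5 at 18.4 to 27.4 CPM had no call in any main comparison.

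**Figure D4:**
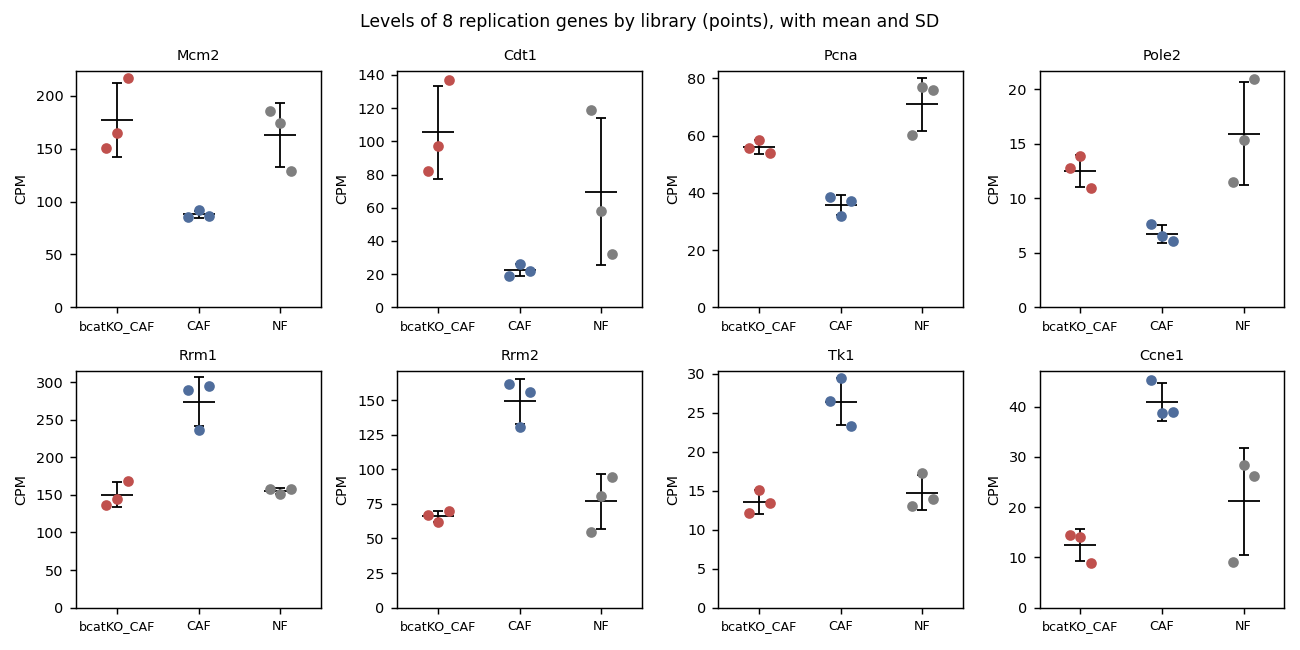
CPM of 8 replication genes in each library (points) with the mean and SD of each group (bar), for beta-catenin -/- CAFs (bcatKO_CAF), CAFs and NFs. CAFs are lowest for Mcm2, Cdt1, Pcna and Pole2 and highest for Rrm1, Rrm2, Tk1 and Ccne1, and NF replicate 1, the left NF point, departs from the other 2 NF points for Cdt1 and Ccne1.

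The nucleotide supply genes were the 1 functional group in which every gene was called in beta-catenin -/- CAFs against CAFs, and all 4 fell. Rrm1, the large subunit of ribonucleotide reductase (chromosome 7, 102441695 to 102469771, plus strand), was at 137, 144 and 169 CPM in beta-catenin -/- CAFs, 289, 236 and 295 CPM in CAFs and 158, 151 and 158 CPM in NFs. Rrm2, the small subunit that is known to be made in S phase (chromosome 12, 24708241 to 24714146, plus strand), was at 66.6, 61.9 and 69.6 CPM in beta-catenin -/- CAFs, 161, 130 and 156 CPM in CAFs and 54.9, 80.9 and 94.3 CPM in NFs. For both, every CAF library lay above every other library. Rrm1 had a log2 fold change of −0.87 ± 0.14 in beta-catenin -/- CAFs against CAFs and 0.81 ± 0.14 in CAFs against NFs (edgeR, adjusted p = 0.0011 and 0.0016). Rrm2 had −1.17 ± 0.20 in beta-catenin -/- CAFs against CAFs and 0.96 ± 0.19 in CAFs against NFs (edgeR, adjusted p = 0.00119 and 0.00363). All 4 of these calls held in all alternatives. In RPKM, Rrm2 was the most abundant of the 42 genes in CAFs, with 23.8 ± 1.4 in beta-catenin -/- CAFs, 53.8 ± 6.0 in CAFs and 27.7 ± 7.2 in NFs (SD, n = 3 each).

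Tk1, the thymidine kinase of the salvage route, was at 12.1, 15.1 and 13.5 CPM in beta-catenin -/- CAFs, 26.5, 29.4 and 23.3 CPM in CAFs and 12.99, 17.3 and 14.0 CPM in NFs. The CAF libraries were again above the other 6, and both calls held in all alternatives, with log2 fold changes of −0.96 ± 0.18 in beta-catenin -/- CAFs against CAFs and 0.84 ± 0.18 in CAFs against NFs (edgeR, adjusted p = 0.00214 and 0.0045). Tyms, thymidylate synthase of the synthesis route, was at 16.8, 17.4 and 20.8 CPM in beta-catenin -/- CAFs, 29.4, 29.7 and 24.1 CPM in CAFs and 16.3, 20.6 and 22.6 CPM in NFs. It fell in beta-catenin -/- CAFs against CAFs by 0.60 ± 0.18 on the log2 scale (edgeR, adjusted p = 0.0218). The call was lost with total counts as scaling, with no filter, and without beta-catenin -/- CAF replicate 1 or 2 or CAF replicate 1 or 2 (0.00644 to 0.0823). In CAFs against NFs its log2 fold change was 0.48 ± 0.18 (edgeR, adjusted p = 0.0547), and without NF replicate 3 it was called (0.0290 to 0.194 over all alternatives). A Tyms pseudogene is annotated, so its counts are uncertain.

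Set side by side, the sums for the helicase and for nucleotide supply had CAFs at opposite ends. The 4 supply genes summed to 233, 239 and 273 CPM in beta-catenin -/- CAFs, 507, 426 and 498 CPM in CAFs and 242, 270 and 289 CPM in NFs. Divided by the MCM2-7 sum of the same library, this gave 0.356, 0.351 and 0.325 in beta-catenin -/- CAFs, 0.964, 0.796 and 0.966 in CAFs and 0.333, 0.324 and 0.424 in NFs. The ratio needs no scaling between libraries, and beta-catenin -/- CAFs and NFs overlapped in it while CAFs lay apart. The pair of sums was chosen with the values of its genes known, so no test is given.

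**Figure D5:**
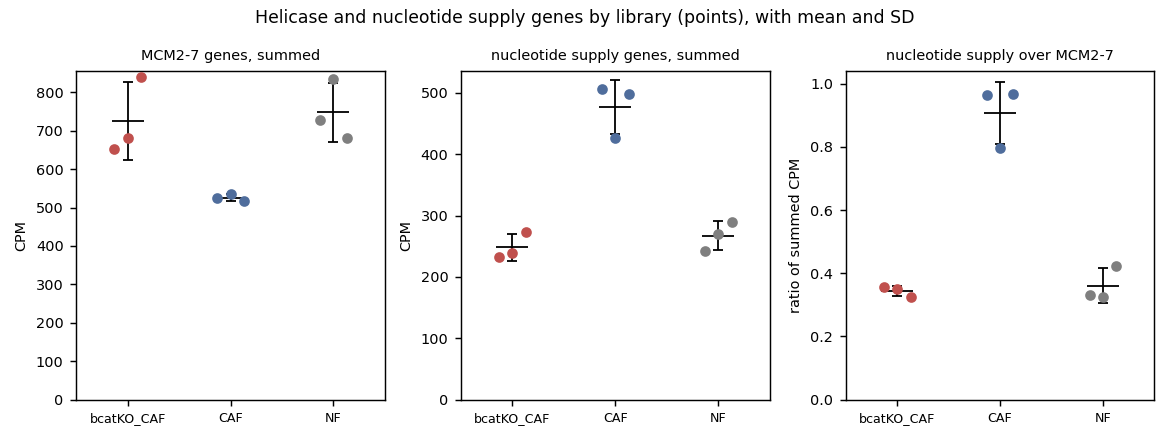
Summed CPM of the 6 MCM2-7 genes, summed CPM of the 4 nucleotide supply genes and their ratio in each library (points), with mean and SD (bar), for beta-catenin -/- CAFs (bcatKO_CAF), CAFs and NFs. The ratio is 0.325 to 0.356 in beta-catenin -/- CAFs, 0.796 to 0.966 in CAFs and 0.324 to 0.424 in NFs.

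The 3 genes of G1/S control each behaved differently. E2f1, the transcription factor at the G1/S boundary, was at 81.8, 80.0 and 77.1 CPM in beta-catenin -/- CAFs, 47.4, 55.6 and 41.4 CPM in CAFs and 85.7, 73.7 and 76.8 CPM in NFs. The CAF libraries were below the other 6, and both calls held in all alternatives, with log2 fold changes of 0.73 ± 0.14 in beta-catenin -/- CAFs against CAFs and −0.71 ± 0.14 in CAFs against NFs (edgeR, adjusted p = 0.00264 and 0.00308). Ccne1, cyclin E1, which with Cdk2 starts S phase (chromosome 7, 38097984 to 38107534, minus strand), was at 14.5, 14.1 and 8.78 CPM in beta-catenin -/- CAFs, 45.3, 38.7 and 38.9 CPM in CAFs and 8.996, 28.4 and 26.1 CPM in NFs. CAFs were highest, and NF replicate 1 lay among the beta-catenin -/- CAFs libraries while the other 2 NF libraries lay between the groups. Ccne1 fell in beta-catenin -/- CAFs against CAFs by 1.72 ± 0.38 on the log2 scale (edgeR, adjusted p = 0.00576), kept in all alternatives. In CAFs against NFs its log2 fold change was 0.95 ± 0.38 (edgeR, adjusted p = 0.0708), and without NF replicate 1 it was 0.60 and called (adjusted p = 0.0474, with 0.0232 to 0.162 over all alternatives). Ccne2, cyclin E2, had no call, at 18.2 to 21.9 CPM in beta-catenin -/- CAFs, 17.2 to 33.4 CPM in CAFs and 18.7 to 33.5 CPM in NFs.

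No gene of the last 2 functional groups was called in a main comparison. Of the genes that finish lagging strands, bind single strands or remove uracil, Lig1, the replicative ligase, was at 51.7 to 70.0 CPM over the 9 libraries, Rpa2, of the single-strand binding protein, at 23.1 to 33.7 CPM, and Ung, the uracil glycosylase, at 3.88 to 7.68 CPM. Fen1, the flap nuclease, was at 45.7 to 48.5 CPM in beta-catenin -/- CAFs, 38.4 to 44.0 CPM in CAFs and 40.2 to 63.9 CPM in NFs. Rpa1, of the same binding protein as Rpa2 but outside the 42 genes, was called. It was at 240, 227 and 263 CPM in beta-catenin -/- CAFs, 136, 125 and 131 CPM in CAFs and 241, 223 and 243 CPM in NFs. Its log2 fold changes were 0.90 in beta-catenin -/- CAFs against CAFs and −0.85 in CAFs against NFs (edgeR, adjusted p = 0.0004 and 0.00054). Among the genes of chromatin and histone supply, Chaf1a and Chaf1b, subunits of the chromatin assembly factor that deposits new histones, were at 46.8 to 62.9 CPM and 15.0 to 23.8 CPM. Uhrf1, which recruits the maintenance DNA methyltransferase, was at 50.6 to 76.0 CPM, and Slbp, which binds the stem-loop of histone mRNAs, at 24.2 to 43.2 CPM. Without NF replicate 1, Fen1, Rpa2 and Slbp were called lower in CAFs than in NFs, with log2 fold changes of −0.60, −0.41 and −0.59 (edgeR, adjusted p = 0.00319, 0.0397 and 0.0101, within ranges of 0.00319 to 0.241, 0.0295 to 0.278 and 0.0101 to 0.245 over all alternatives). Exon bases were shared with another gene in 16 of the 42 genes, in 15 of them on the opposite strand, and for Chaf1a with Ubxn6 this came to 52.5% and for Fen1 with Gm10143 to 78.8% of the exon length, although Gm10143 had 10 counts in all libraries together.

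In beta-catenin -/- CAFs against NFs no replication gene passed the test, and neither did any of the 14314 genes (0%) in edgeR, although 702 genes had an unadjusted p under 0.05. DESeq2 called 6 genes, none of them among the 42, and limma-voom called 0 with 1144 unadjusted. The median log2 fold change of the 42 genes was −0.12, and 2 of them, Pcna and Slbp, had an unadjusted p under 0.05 and were also the 2 whose groups did not overlap, both lower in beta-catenin -/- CAFs, beside 6.87% of all tested genes (3.23% above and 3.64% below). This result rested on NF replicate 1. Without it, edgeR called 1620 genes higher and 1039 lower among 14759, and 9 of the 42: Cdt1 (log2 fold change 1.23, adjusted p = 0.0254) and Pole (0.72, 0.0353) were higher in beta-catenin -/- CAFs than in the remaining NFs. Ccne1 (−1.12, 0.0126), Cdc6 (−0.73, 0.0186), Mcm4 (−0.54, 0.0225), Slbp (−0.59, 0.0274), Uhrf1 (−0.43, 0.0360), Pcna (−0.44, 0.0464) and Fen1 (−0.41, 0.0468) were lower (edgeR, adjusted p). Over the other alternatives none of the 9 was called, with adjusted p up to 0.953. Whether NF replicate 1 belongs with its label was not tested beyond these values.

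Of 55 other replication and G1/S genes, 12 were higher and 5 lower in beta-catenin -/- CAFs against CAFs (21.8% and 9.09%, beside 21.5% and 22.7% of all tested genes; median log2 fold change 0.21). Of the same 55 genes, 3 were higher and 14 lower in CAFs against NFs (5.45% and 25.5%, beside 20% and 19.9% of all tested genes; median −0.24). The share called was 30.9% in both, below the 44.2% and 39.9% of all tested genes, and the share higher against CAFs was at the background. The largest rises against CAFs were those of E2f8, an E2F that represses its targets, the helicase Recql4, the pocket protein Rbl1 and E2f2. E2f8 was at 126, 127 and 99.9 CPM in beta-catenin -/- CAFs, 19.3, 21.4 and 19.96 CPM in CAFs and 107, 125 and 223 CPM in NFs, with log2 fold changes of 2.54 ± 0.27 in beta-catenin -/- CAFs against CAFs and −2.90 ± 0.27 in CAFs against NFs (edgeR, adjusted p = 8.51e-05 and 3.96e-05). Its CAF libraries stood far below the rest. Recql4 had 2.12 in beta-catenin -/- CAFs against CAFs and −1.33 in CAFs against NFs, Rbl1 1.29 and −1.06, and E2f2 1.22 and −1.40. The Recql4 call in CAFs against NFs (adjusted p = 0.0441) was lost with limma-voom, with the 6 libraries alone, and without any of the CAF replicates or NF replicate 1 (adjusted p of the lost calls 0.0713 to 0.144). E2f5 was the remaining gene among the 4 largest falls in CAFs against NFs, at −1.21.

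E2f7, the close relative of E2f8, went the other way: 12.9, 11.1 and 11.9 CPM in beta-catenin -/- CAFs, 24.2, 21.4 and 20.1 CPM in CAFs and 11.7, 13.2 and 10.6 CPM in NFs, with log2 fold changes of −0.87 ± 0.16 in beta-catenin -/- CAFs against CAFs and 0.89 ± 0.16 in CAFs against NFs (edgeR, adjusted p = 0.00241 and 0.00221). E2f4, another repressing E2F, had −0.86 in beta-catenin -/- CAFs against CAFs and 0.71 in CAFs against NFs, and the second of these calls was lost with total counts as scaling, with the 6 libraries alone, and without CAF replicate 2 or NF replicate 2 (0.0526 to 0.0775). The other falls in beta-catenin -/- CAFs against CAFs, of Tfdp1 (−0.55), Exo1 (−0.53) and Cdc25a (−0.49), were each lost without any of the beta-catenin -/- CAF replicates and without CAF replicates 1 or 2, Exo1 and Cdc25a also without CAF replicate 3. All 3 were also lost with total counts as scaling, Exo1 and Cdc25a with no filter, and Cdc25a with limma-voom (adjusted p of the lost calls 0.0515 to 0.170). Dbf4, the partner of the Cdc7 kinase, was the other gene that rose in CAFs against NFs (0.68), a call that ended with total counts as scaling, with the 6 libraries alone, and when CAF replicate 1, CAF replicate 3, NF replicate 2 or NF replicate 3 was left out (0.0532 to 0.0774).

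The G1 cyclins, their kinases and the inhibitors of these kinases act upstream of E2F. Of 12 such genes, 3 rose and 5 fell in beta-catenin -/- CAFs against CAFs (25% and 41.7%, beside 21.5% and 22.7% of all tested genes). For CAFs against NFs 4 rose and 2 fell (33.3% and 16.7%, beside 20% and 19.9%). Ccnd1, cyclin D1, was at 2381, 2585 and 3190.5 CPM in beta-catenin -/- CAFs, 329, 306 and 438 CPM in CAFs and 2628, 2087 and 2265 CPM in NFs (log2 fold changes 2.93 ± 0.22 in beta-catenin -/- CAFs against CAFs and −2.70 ± 0.22 in CAFs against NFs; edgeR, adjusted p = 1.42e-05 and 2.04e-05). Ccnd2, cyclin D2, had the opposite order, with 334, 352 and 458 CPM in beta-catenin -/- CAFs, 1450.5, 1423 and 1516.5 CPM in CAFs and 395, 113 and 179 CPM in NFs. The inhibitor genes Cdkn2a, Cdkn2b and Cdkn1c were near the floor outside the CAFs. Cdkn2a, which encodes p16 and p19Arf, was at 0, 0 and 0.0577 CPM in beta-catenin -/- CAFs, 27.3, 40.2 and 41.5 CPM in CAFs and 0.190, 0 and 0 CPM in NFs, where 3 counts correspond to 0.137 to 0.194 CPM. Cdkn2b was at 0.346 to 1.03 CPM in beta-catenin -/- CAFs, 32.4 to 43.9 CPM in CAFs and 0.213 to 1.58 CPM in NFs. Cdkn1c was at 0.231 to 0.778 CPM in beta-catenin -/- CAFs, 21.0 to 34.3 CPM in CAFs and 0.633 to 1.92 CPM in NFs. Cdkn2c, the inhibitor p18, went the other way, with log2 fold changes of 1.15 in beta-catenin -/- CAFs against CAFs and −1.47 in CAFs against NFs. Ccnd3 fell (−0.88) and Cdk6 rose (0.54) in beta-catenin -/- CAFs against CAFs. Ccnd3 lost its call without beta-catenin -/- CAF replicate 1 or 3 or CAF replicate 2, and Cdk6 without any of the beta-catenin -/- CAF replicates or CAF replicates 2 or 3 (adjusted p of the lost calls 0.0507 to 0.0808 and 0.0588 to 0.124).

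Genes of G2 and mitosis, a later stage of the cycle, did not follow the helicase genes. The 25 genes of that list summed to 1708, 1520 and 2071 CPM in beta-catenin -/- CAFs, 2047, 1930 and 2099 CPM in CAFs and 1886, 863 and 994 CPM in NFs. NF replicate 1 was well above the other 2 NF libraries. In beta-catenin -/- CAFs against CAFs 0 rose and 5 fell in edgeR, namely Kif20a (log2 fold change −1.61), Cdc20 (−1.60), Plk1 (−1.14), Birc5 (−0.92) and Cdk1 (−0.47), with 7 at an unadjusted p under 0.05 and 6 falls in DESeq2. The 5 falls are 20% of the list, near the 22.7% of all tested genes called lower. The Cdk1 call was lost without beta-catenin -/- CAF replicate 1 or 3 or CAF replicate 2, with total counts as scaling and with no filter (0.0514 to 0.0835). In CAFs against NFs 12 rose (48.0%, beside 20% of all tested genes) and 0 fell, led by Cdc20 (2.01), Kif20a (1.95), Ccnb2 (1.46) and Plk1 (1.43). Without NF replicate 1 23 rose, when 3521 of all 14759 tested genes did. The Ccnb2 call was lost with the 6 libraries alone and without any of the CAF replicates or NF replicates 2 or 3 (0.0725 to 0.0867). In beta-catenin -/- CAFs against NFs none was called, but 20 rose without NF replicate 1, when 1620 of all 14759 tested genes did.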

How the data were processed

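RNA-seq libraries of cultured cells, 9 in all with 3 in each of 3 groups, were analysed. Whole-number read counts for each Ensembl gene had been deposited, without normalisation, and the values in the series table and in the files of individual samples were identical (0 differences). The submitters' processing notes name bcl2fastq, TopHat, edgeR and build mm10. The sources used here give neither the read counter nor its strand setting. Symbols were matched for 51633 of 51912 genes, and exon lengths came from GENCODE M21 on GRCm38.

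Genes were filtered with filterByExpr, scaled by TMM and tested in edgeR 4.0.16 (R 4.3.3), in 1 quasi-likelihood fit of all 9 libraries with group as the only term, with Benjamini-Hochberg adjustment over 14314 genes and calls under 0.05. CPM used TMM library sizes, and RPKM divided CPM by the joined exon length in kilobases. The floor of 3 counts covers counting error only. Correlations used log2 CPM with a pseudocount of 0.5. Alternatives were RLE and total-count scaling, no filter, CPM of at least 1 in 3 libraries, DESeq2 1.42.0, limma-voom 3.58.1, the 6 libraries compared alone, and leaving out each library. Fits were also run on simulated counts with known changes in some genes. That simulation held no outlying library such as NF replicate 1, so it does not check the calls given here.

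The 42 genes and the other lists were chosen with earlier results of these data known. All 42 could be named, and of each other list the 4 largest called in each direction, or all where 5 or fewer were called. Rpa1 was named in addition, as a partner of Rpa2.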

Additional observations from a re-analysis of the deposited data

How the results depend on the processing

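Of the 19 calls in beta-catenin -/- CAFs against CAFs, 12 held under all 13 alternatives, as did 11 of the 19 in CAFs against NFs. No called fold change of the 42 genes turned its sign. With total counts as scaling, which moved the median of all genes by 0.14 and −0.16, the calls were 18 higher and 6 lower in beta-catenin -/- CAFs against CAFs (median 0.33) and 3 higher and 19 lower in CAFs against NFs (median −0.52), against 12 and 7, and 5 and 14. With no filter 9 genes were lower in CAFs than in NFs. In beta-catenin -/- CAFs against CAFs, the fit of only the 6 libraries compared kept all 19 calls and added 6. DESeq2 kept the 19 and added 3. In CAFs against NFs the fit of 6 libraries kept 16 calls and lost 3, and DESeq2 kept 19 and added 2. Mcm5, Mcm7, Cdc45, Gins3, Pola1, Prim1 and Chaf1b, without a main call in beta-catenin -/- CAFs against CAFs, were each called there under at least 1 alternative. Leaving out single libraries gave 7 to 11 genes higher in beta-catenin -/- CAFs than in CAFs, with 7 without CAF replicate 3. For CAFs against NFs it gave 3 to 5 higher and 9 to 18 lower, with 3 and 9 without CAF replicate 3 and 18 without NF replicate 1. For beta-catenin -/- CAFs against NFs it gave 0 to 2 higher and 0 to 7 lower, with 2 and 7 without NF replicate 1. Mcm4 in CAFs against NFs, which had no call, ranged from −0.35 to 0.012 and changed sign without NF replicate 2. The cause was not tested. Among the other 55 replication genes, total-count scaling gave 19 higher and 2 lower in beta-catenin -/- CAFs against CAFs and 1 higher and 24 lower in CAFs against NFs, against 12 and 5, and 3 and 14. Fitting the 6 libraries compared alone gave 19 and 6, and 1 and 8. Leaving out single libraries gave 8 to 11 higher and 2 or 3 lower in the first comparison. In the second it gave 9 lower without CAF replicate 3, and 1 higher without NF replicate 2 and 5 higher without NF replicate 1. The same fit of 6 libraries gave 2 G2 and mitosis genes higher and 12 lower in beta-catenin -/- CAFs against CAFs, and 7 higher in CAFs against NFs. No paired analysis was possible because the labels carry no replicate number shared by groups. The replicate numbers used here follow the order of the samples within each group.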
